A study of Mus musculus with 27 samples.

Results

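The genes described are the interferon regulatory factor (IRF) genes Irf1, Irf2, Irf3, Irf4, Irf5, Irf7, Irf8 and Irf9, chosen by symbol in the table of normalised read counts per gene, which makes 8 of its 45070 genes. All 8 passed the filter on low values and were among the 13901 genes tested. The cells were bone marrow-derived macrophages (BMDMs) of wild-type male C57/BL6 mice aged 6 to 8 weeks, and every group, the controls included, first received the vehicle DMSO for 1 h. The 9 groups were untreated cells and cells given LPS at 10 ng/ml or IL-4 at 10 ng/ml for 0.5, 1, 2 or 4 h, with 3 samples each. Chromatin-associated RNA was sequenced, the fraction that stays with the template and is enriched in transcripts still being made.

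IRFs are DNA-binding proteins that recognise GAAA repeats in the promoters of interferon and interferon-stimulated genes. IRF3 and IRF7 are phosphorylated by the kinases TBK1 and IKKε after TLR4 or nucleic acid sensing and switch on type I interferon genes, and IRF9 is part of the complex ISGF3 that answers interferon. IRF1 activates and IRF2 can repress many of the same elements, IRF5 acts below MyD88, IRF8 is a myeloid lineage factor that pairs with PU.1, and IRF4 serves the IL-4 and alternative activation programme of macrophages.

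All 8 genes had a promoter in RefSeq (GRCm38.p6, the build of the table) that begins at the start site the table gives. The 250 bases upstream were searched on both strands for a GAS element, the STAT dimer site (TTCNNNGAA), its variant with a longer spacer (TTCNNNNGAA), an IRF element (GAAANNGAAA) and the κB consensus, the site of NF-κB. Irf1, Irf2 and Irf8 held at least 1 of these motifs and the other 5 genes held none of these letters in the window. The 3 sequences with a match, in capitals, are shown because these genes all rose between 1 and 2 h of LPS, as did Irf7 and Irf9, which held no match.
Irf1: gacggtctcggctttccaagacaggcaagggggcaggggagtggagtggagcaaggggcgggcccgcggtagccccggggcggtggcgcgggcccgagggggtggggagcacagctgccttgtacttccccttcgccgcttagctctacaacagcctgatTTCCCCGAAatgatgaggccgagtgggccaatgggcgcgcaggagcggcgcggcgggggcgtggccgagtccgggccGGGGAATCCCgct
Irf2: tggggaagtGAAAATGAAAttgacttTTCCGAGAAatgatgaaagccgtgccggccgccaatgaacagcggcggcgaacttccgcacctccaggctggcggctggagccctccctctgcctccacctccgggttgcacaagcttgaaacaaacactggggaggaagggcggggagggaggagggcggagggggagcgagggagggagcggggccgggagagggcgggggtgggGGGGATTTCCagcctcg
Irf8: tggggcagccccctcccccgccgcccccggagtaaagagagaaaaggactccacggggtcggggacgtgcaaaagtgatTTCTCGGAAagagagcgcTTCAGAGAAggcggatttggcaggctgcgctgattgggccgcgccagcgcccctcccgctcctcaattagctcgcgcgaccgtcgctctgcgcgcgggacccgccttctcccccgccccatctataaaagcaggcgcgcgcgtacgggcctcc
The Irf1 window (chr11:53769764-53770013, + strand) held a GAS element from -90 to -82 relative to the start site and a κB match from -13 to -4. The Irf2 window (chr8:46739495-46739744, + strand) held an IRF element from -241 to -232, a GAS element from -224 to -216 and a κB match from -17 to -8. The Irf8 window (chr8:120736108-120736357, + strand) held GAS elements from -171 to -163 and from -153 to -145. Of all 32851 promoters, 7.02% held a GAS element, 5.85% its longer variant, 2.98% the IRF element and 7.25% the κB consensus in a window of the same length. A match is a run of letters and does not show that a factor was bound.

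The deposited table sums to 3571492 to 4058199 normalised read counts in the LPS samples and 2469768 to 2790981 in the untreated and IL-4 samples. Replicate 1 stood apart from replicates 2 and 3, with an SD of log2 ratios over abundant genes of 0.37 to 0.496 against either, while replicates 2 and 3 differed from each other by 0.138 to 0.287. Irf1 and Irf8 were highest in replicate 1 in all 9 groups. All 10 macrophage markers were measured and their sum ranged from 10064 to 19854 normalised read counts per sample, while the summed markers of other cell types ranged lower, those of B cells (7 to 65), T and NK cells (0 to 35), dendritic cells (11 to 101), neutrophils and progenitors (4 to 76), stromal cells (29 to 281) and mast cells (0 to 3). The T cell markers Cd3e and Cd3g were at 0 in every sample and the dendritic marker Xcr1 likewise, while the dendritic markers Zbtb46 and Clec9a reached 90 and 42. Some of these sums moved with LPS. The dendritic sum was 11 to 20 in untreated samples and 55 to 101 at 1 h of LPS, and the T and NK cell sum went from 1 to 3 up to 14 to 35 at 2 h, of which Lck gave up to 31. The neutrophil and progenitor sum was 4 to 10 in untreated samples, 13 to 76 at 2 h and 24 to 51 at 4 h of LPS. Over all samples of the 9 groups, Ngp held 3 to 57 and S100a8 0 to 16, while Camp held 0 to 5 and Ly6g was at 0 in every sample. The stromal sum was 39 to 91 in untreated samples, 118 to 267 at 2 h and 107 to 281 at 4 h of LPS. The part of these in the results was not tested. No label says that replicates came from separate cultures or animals, so the p-values measure only the spread between these samples. In bulk samples, fewer cells and less RNA per cell cannot be told apart.

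After LPS all 8 IRF genes changed over the course, by a moderated F test in limma at an adjusted p under 0.05, as did 87.6% of all genes tested. The count is near that background, so the direction, size and timing of each gene carry the description. The median log2 fold change of the 8 was 0.621, 0.807, 1.65 and 1.04 at the 4 times in order, against -0.245, -0.305, -0.287 and -0.258 over all genes. At 0.5 h, 3 IRF genes were higher (Irf1, Irf3 and Irf5) and 1 was lower (Irf8), where 19.6% of all genes were called higher and 34.4% lower. At 1 h, 5 were higher (Irf1, Irf4, Irf5, Irf7 and Irf9) and Irf2 was lower, against 24.8% and 39% of all genes. At 2 h, 6 were higher (Irf1, Irf2, Irf5, Irf7, Irf8 and Irf9) and Irf3 and Irf4 were lower, against 26.9% and 39%. At 4 h, 5 were higher (Irf1, Irf2, Irf5, Irf7 and Irf9) and Irf4 was lower, against 25.9% and 37.6%. Between successive times, 6 IRF genes changed from 0.5 to 1 h (49.7% of all genes), 7 from 1 to 2 h (43.3%) and 4 from 2 to 4 h (22.9%). The first of these counts was 3 without replicate 2 and 3 without replicate 3, and the last was 1, Irf8, without replicate 2.

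IL-4 gave calls for fewer of them over the course and from 1 h on, and for as many (4) at 0.5 h. The F test called 6 of the 8 (all but Irf3 and Irf5), against 40.3% of all genes, but only Irf2, Irf4 and Irf7 without replicate 2, without replicate 3, or with replicates 2 and 3 averaged into 1 sample. At 0.5 h, Irf2, Irf4 and Irf7 were higher and Irf8 was lower, where 8.15% of all genes were called higher and 8.14% lower. At 1 h, Irf1, Irf2, Irf4 and Irf7 were higher and none was lower, against 11.1% and 9.83%. At 2 h, Irf1, Irf4 and Irf7 were higher and none was lower, against 14.3% and 13.2%, and the same 3 were higher and none lower at 4 h, against 13.4% and 12.5%. At those 3 times, limma gave 0 IRF genes lower at an unadjusted p under 0.05 as well, but Irf8 at 1 h was called lower without replicate 1 (adjusted p = 5.30e-04). Between successive times, limma called 0 from 0.5 to 1 h (7.82% of all genes, and 0 IRF genes at an unadjusted p under 0.05), 2 from 1 to 2 h (9.4%) and 0 from 2 to 4 h (5.48%, and 1 IRF gene, Irf4, at an unadjusted p under 0.05). Without replicate 1 these counts were 2, 3 and 1, and the middle one was 1 without replicate 2 or replicate 3.

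**Figure D1:**
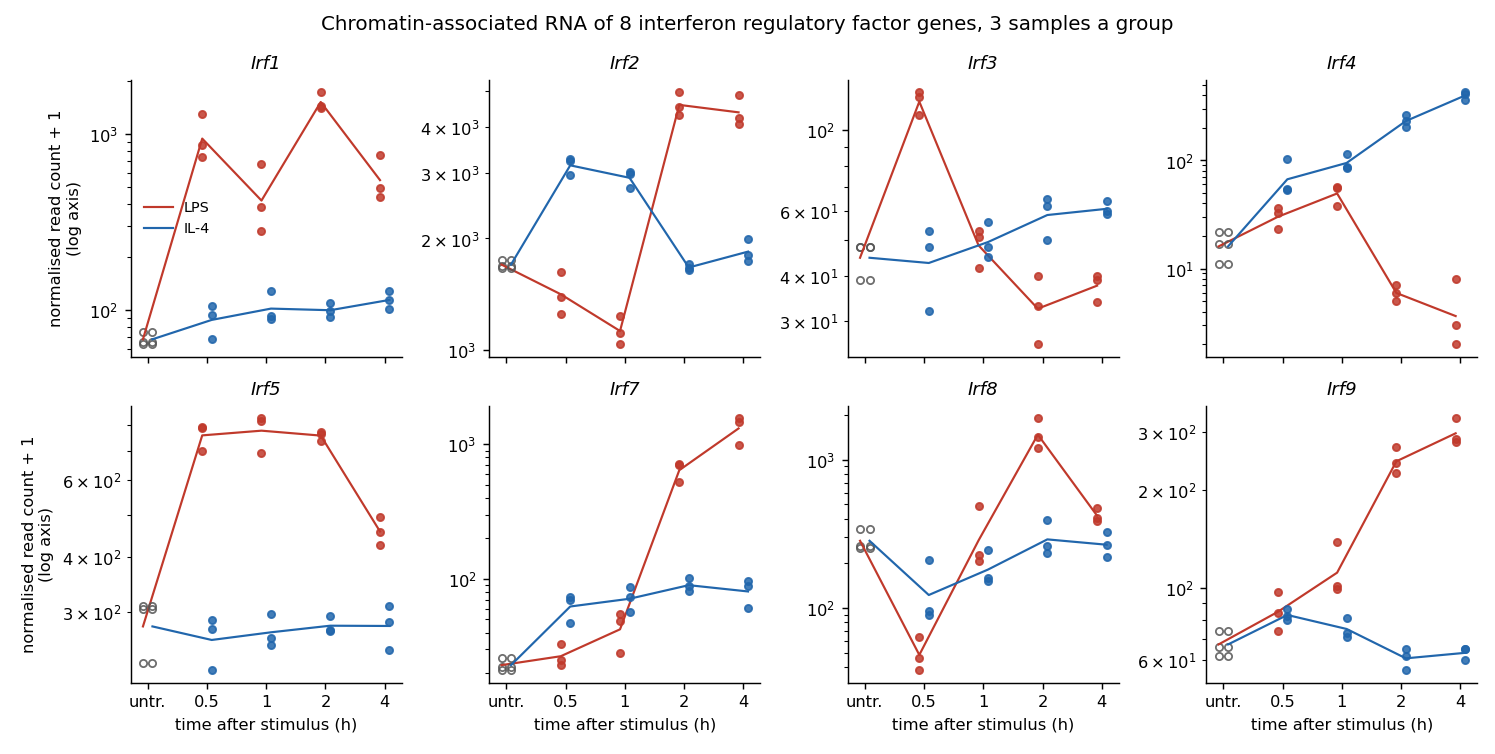
Normalised read counts plus 1 (log axis) of each IRF gene in untreated cells (open grey points, the same 3 samples drawn for both courses) and after LPS (red) or IL-4 (blue) for 0.5, 1, 2 or 4 h, where points are samples and lines join geometric means. Irf1 peaks at 0.5 h and again at 2 h after LPS, Irf8 dips to 37 to 63 at 0.5 h before reaching 1193 to 1895 at 2 h, and Irf4 parts between the stimuli, with 1 to 7 after LPS and 361 to 426 after IL-4 at 4 h.

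Irf7 (chromosome 7, 141263183 to 141266424, - strand), the inducible factor that amplifies type I interferon, showed the largest fold change of the 8 genes after LPS. Its 3 untreated samples held 21, 20 and 25 normalised read counts and its LPS samples 22, 24 and 32 at 0.5 h, with 54, 48 and 27 at 1 h. The LPS samples then held 528, 711 and 704 at 2 h, with 988, 1467 and 1557 at 4 h. The samples of 2 and 4 h lay far above all others and did not overlap, while those of 0.5 h overlapped untreated. This gave a log2 fold change of 0.88 at 1 h (limma adjusted p = 0.00561), 4.81 at 2 h (SE 0.25, adjusted p = 1.54e-10) and 5.84 at 4 h (SE 0.25, adjusted p = 1.58e-11), a 57.3-fold rise on the log2(value + 1) scale. The step from 1 to 2 h was 3.93 on the log2 scale (limma adjusted p = 5.94e-09) and that from 2 to 4 h 1.03 (adjusted p = 0.00677). The 1 h call and the last step were lost without replicate 2, at limma adjusted p = 0.128 and 0.119.

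IL-4 also raised Irf7, earlier than LPS and less. The IL-4 samples held 46, 69 and 73 at 0.5 h, then 56, 86 and 72 at 1 h, next 87, 80 and 101 at 2 h, and last 60, 88 and 96 at 4 h. All 12 lay above the 3 untreated samples. On the log2 scale the change was 1.45 (SE 0.22, limma adjusted p = 3.68e-04), 1.64, 1.97 and 1.82 at the 4 times, each called under every alternative run. Set directly against each other, the log2 ratio of LPS to IL-4 was -1.23 at 0.5 h (limma adjusted p = 1.94e-04), 2.84 at 2 h and finally 4.02 (adjusted p = 6.92e-13), so the order of the stimuli turned within the course. At 1 h it was -0.75 (limma adjusted p = 0.0104), a call lost without replicate 2 (0.11) and without replicate 3 (0.202).

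Irf9 (chromosome 14, 55603985 to 55610030, + strand), the DNA-binding subunit of ISGF3, rose with LPS from 1 h on. The untreated samples held 65, 73 and 61, and the LPS samples 73, 96 and 83 at 0.5 h, with 137, 100 and 98 at 1 h. They then held 223, 240 and 268 at 2 h, with 329, 278 and 284 at 4 h. From 1 h on, every LPS sample lay above every untreated one. This gave a log2 fold change of 0.73 at 1 h (SE 0.16, limma adjusted p = 8.73e-04), 1.86 at 2 h and 2.15 at 4 h (SE 0.16, adjusted p = 9.49e-09), which is 4.42-fold. At 0.5 h the change of 0.33 was not called (adjusted p = 0.0895), but was without replicate 1 (0.0181). After IL-4 its samples ranged from 55 to 85 over all 4 times. The F test called it there (limma adjusted p = 0.0189) with no call at any one time, and not without replicate 1 (0.105), replicate 2 (0.133) or replicate 3 (0.278).

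Irf3 (chromosome 7, 44997648 to 45002848, + strand), which encodes the factor held latent in resting cells and activated by phosphorylation, showed a short rise after LPS. Its untreated samples held 47, 38 and 47, its 0.5 h LPS samples 126, 122 and 109, and its 1 h LPS samples 41, 50 and 52. Among the LPS groups, only that of 0.5 h stood clear of untreated on the high side. The log2 fold change at 0.5 h was 1.42 (SE 0.19, limma adjusted p = 1.54e-05), 2.67-fold, and Irf3 dropped by 1.31 on the log2 scale from 0.5 to 1 h (limma adjusted p = 3.93e-05). At 2 h the samples held 25, 39 and 32, a log2 fold change of -0.46 (limma adjusted p = 0.042), a call lost without replicate 1 (0.272) and without replicate 3 (0.227). After IL-4 Irf3 held 31 to 55 at 0.5 and 1 h, overlapping untreated, and 64, 61 and 49 at 2 h and 59, 63 and 58 at 4 h, all above untreated. The log2 fold changes of 0.39 and 0.44 at these later times were not called (limma adjusted p = 0.14 and 0.095), and the F test gave 0.118. The log2 ratio of LPS to IL-4 was 1.47 at 0.5 h, -0.85 at 2 h and finally -0.70 (limma adjusted p = 4.55e-07, 2.96e-04 and 0.00197).

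Irf1 (chromosome 11, 53770014 to 53778374, + strand), an immediate activator of interferon-γ-type genes, had the highest fold change of the 8 genes at 0.5 h of LPS and peaked again at 2 h. The untreated samples held 74, 63 and 65. The LPS samples held 1303, 742 and 862 at 0.5 h, with 676, 385 and 280 at 1 h, then 1725, 1413 and 1439 at 2 h, with 757, 491 and 438 at 4 h. All 12 LPS samples exceeded all untreated samples, and the 2 h samples exceeded all others. On the log2 scale the change was 3.79 at 0.5 h (SE 0.28, limma adjusted p = 2.70e-08), 2.62 at 1 h, 4.48 at 2 h (adjusted p = 1.42e-09, 22.3-fold) and 3.0 at 4 h.

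The fall and the second rise of Irf1 were tested as steps. It dropped by 1.17 on the log2 scale from 0.5 to 1 h (SE 0.28, limma adjusted p = 0.00269), rose by 1.86 from 1 to 2 h (adjusted p = 5.42e-05) and dropped by 1.47 from 2 to 4 h (adjusted p = 0.00128). The first fall was not called without replicate 3 (0.0563), and the last was not called without replicate 2 (0.0569). The rise from 1 to 2 h was called under every alternative run.

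IL-4 raised Irf1 little. Its samples held 105, 67 and 93 at 0.5 h, then 128, 88 and 91 at 1 h, next 109, 98 and 90 at 2 h, and last 128, 100 and 113 at 4 h. The 0.5 h samples overlapped untreated and those of the later times did not. This gave a log2 fold change of 0.58 at 1 h (limma adjusted p = 0.0327), 0.55 at 2 h (0.0341) and 0.74 at 4 h (SE 0.18, 0.00692). The 1 and 2 h calls were lost without replicate 2 (0.0956 and 0.138) and without replicate 3 (0.212 and 0.204), and the 4 h call without replicate 3 (0.134). LPS exceeded IL-4 at each time, by 3.42, 2.04, 3.93 and 2.26 on the log2 scale (limma adjusted p at most 2.42e-07).

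Irf2 (chromosome 8, 46739745 to 46847458, + strand), whose product competes with IRF1 for its elements, was higher at 0.5 and 1 h of IL-4 and at 2 and 4 h of LPS. The untreated samples held 1686, 1662 and 1753. The LPS samples held 1252, 1388 and 1625 at 0.5 h, then 1238, 1109 and 1037 at 1 h, next 4957, 4298 and 4523 at 2 h, and last 4884, 4067 and 4222 at 4 h. They lay below untreated at 0.5 and 1 h and far above it at 2 and 4 h. On the log2 scale the change was -0.27 at 0.5 h (limma adjusted p = 0.0655), -0.60 at 1 h (SE 0.12, adjusted p = 3.75e-04), 1.43 at 2 h (adjusted p = 3.02e-08) and 1.36 at 4 h, and the step from 1 to 2 h was 2.03 (adjusted p = 2.35e-09).

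With IL-4 the Irf2 samples held 2957, 3231 and 3269 at 0.5 h, with 2742, 2980 and 3031 at 1 h, and were back at 1639, 1666 and 1704 at 2 h. At 4 h they held 1995, 1739 and 1803. The first pair of groups lay above all untreated samples and the 2 h group overlapped them. This gave a log2 fold change of 0.89 at 0.5 h (SE 0.07, limma adjusted p = 1.28e-06) and 0.78 at 1 h, and Irf2 dropped by 0.80 from 1 to 2 h (adjusted p = 1.66e-05). All of these calls held under every alternative run. The log2 ratio of LPS to IL-4 was -1.15 and -1.37 at the first times, then 1.46 and 1.25 (limma adjusted p at most 7.28e-10).

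Irf2 spans 107714 bases, and the non-coding genes Gm31172 and Gm39170 overlap it on the other strand, by at most 4262 bases. Whether the counting used strand is not stated in the sources used here, so reads could be shared. Gm31172 held a mean of 144 in untreated cells, 102 after LPS for 1 h, 398.7 after LPS for 2 h, and 333.7 at 0.5 h after IL-4. Gm39170 held means of 74.3 in untreated cells, 30 after LPS for 1 h, 188.7 after LPS for 2 h, and 152.3 at 1 h after IL-4. The part of both in the Irf2 values was not tested.

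Irf5 (chromosome 6, 29526625 to 29541869, + strand), the factor that acts below MyD88 on inflammatory cytokine genes, rose to a plateau after LPS. The untreated samples held 228, 303 and 308. The LPS samples held 788, 791 and 697 at 0.5 h, then 690, 819 and 828 at 1 h, next 737, 770 and 763 at 2 h, and last 492, 455 and 426 at 4 h. The first 3 times overlapped each other, and all 12 samples exceeded untreated. On the log2 scale the change was 1.45 (SE 0.13, limma adjusted p = 1.71e-07), 1.48, 1.45 and 0.72 (adjusted p = 1.26e-04), and the drop from 2 to 4 h was by 0.73 (adjusted p = 6.22e-04, and 0.0513 without replicate 2). IL-4 left no call: the 12 samples held 220 to 308 and the F test gave a limma adjusted p of 0.935. Tnpo3 overlaps Irf5 on the other strand by 1043 bases and had means of 265.3 to 444.3 over the LPS times, with 267.7 in untreated cells, and its part in the Irf5 values was not tested.

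Irf8 (chromosome 8, 120736358 to 120756694, + strand), the lineage factor expressed in resting macrophages, fell first and rose later after LPS. The untreated samples held 340, 254 and 261. The LPS samples held 63, 37 and 45 at 0.5 h, then 489, 207 and 227 at 1 h, next 1895, 1193 and 1412 at 2 h, and last 468, 403 and 386 at 4 h. The 0.5 h samples lay below and the 2 h samples above all others. This gave a log2 fold change of -2.56 at 0.5 h (SE 0.28, limma adjusted p = 2.07e-06), 0.01 at 1 h, 2.38 at 2 h (adjusted p = 2.13e-06) and 0.56 at 4 h (adjusted p = 0.0914).

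The steps of Irf8 after LPS were larger than those of any other member from 0.5 to 1 h and from 2 to 4 h. Irf8 rose by 2.57 on the log2 scale from 0.5 to 1 h (limma adjusted p = 2.45e-06) and by 2.37 from 1 to 2 h (adjusted p = 4.58e-06), and dropped by 1.82 from 2 to 4 h (adjusted p = 2.39e-04). All of these steps were called under every alternative run. The 4 h difference from untreated was called without replicate 1 (0.61, limma adjusted p = 5.26e-04).

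With IL-4 the Irf8 samples held 210, 89 and 95 at 0.5 h, then 246, 152 and 157 at 1 h, next 391, 235 and 262 at 2 h, and last 322, 219 and 266 at 4 h. The samples of 0.5 and 1 h lay below untreated and the later ones overlapped it. The log2 fold change at 0.5 h was -1.21 (SE 0.31, limma adjusted p = 0.0139), and that at 1 h was -0.64 (adjusted p = 0.168). The 0.5 h call was lost without replicate 2 (0.197) and without replicate 3 (0.234), and the 1 h difference was called without replicate 1 (5.30e-04). The log2 ratio of LPS to IL-4 was -1.34 at 0.5 h (limma adjusted p = 9.08e-04) and 2.35 at 2 h (adjusted p = 5.63e-07). The ratios of 0.65 at both other times did not pass (limma adjusted p = 0.0734 and 0.0718), but did without replicate 1 (0.00142 and 2.53e-05).

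Irf4 (chromosome 13, 30749233 to 30766981, + strand), the factor of alternative activation, was above untreated at each IL-4 time. The untreated samples held 21, 16 and 10. The IL-4 samples held 102, 54 and 52 at 0.5 h, then 113, 85 and 86 at 1 h, next 230, 205 and 260 at 2 h, and last 361, 426 and 411 at 4 h. Every IL-4 sample lay above every untreated one, and the 4 h samples lay above all others. On the log2 scale the change was 2.06 at 0.5 h (SE 0.26, limma adjusted p = 8.88e-05), 2.56 at 1 h, 3.85 at 2 h and 4.64 at 4 h (adjusted p = 3.71e-08), 24.9-fold, all 4 called under every alternative run. The step from 1 to 2 h was 1.29 (limma adjusted p = 0.00707), lost without replicate 2 (0.189) and without replicate 3 (0.129).

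With LPS, Irf4 went up and then down. The LPS samples held 22, 35 and 32 at 0.5 h, then 37, 55 and 56 at 1 h, next 6, 4 and 5 at 2 h, and last 7, 2 and 1 at 4 h. The samples of 0.5 and 1 h lay above and those of 2 and 4 h below all untreated samples, by 1 normalised read count for the lowest at 0.5 h. This gave a log2 fold change of 1.63 at 1 h (SE 0.43, limma adjusted p = 0.00404), -1.43 at 2 h (adjusted p = 0.00885) and -2.14 at 4 h (adjusted p = 4.73e-04), and Irf4 dropped by 3.06 from 1 to 2 h (adjusted p = 2.96e-05). The 1 h call was lost without replicate 2 (0.0643) and without replicate 3 (0.0712), and the 2 h call without replicate 2 (0.122). At 0.5 h the change of 0.91 was not called (limma adjusted p = 0.0886), but was without replicate 1 (0.00519). The later values lie near the floor of 3 counts, so the size of those falls is imprecise.

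**Figure D2:**
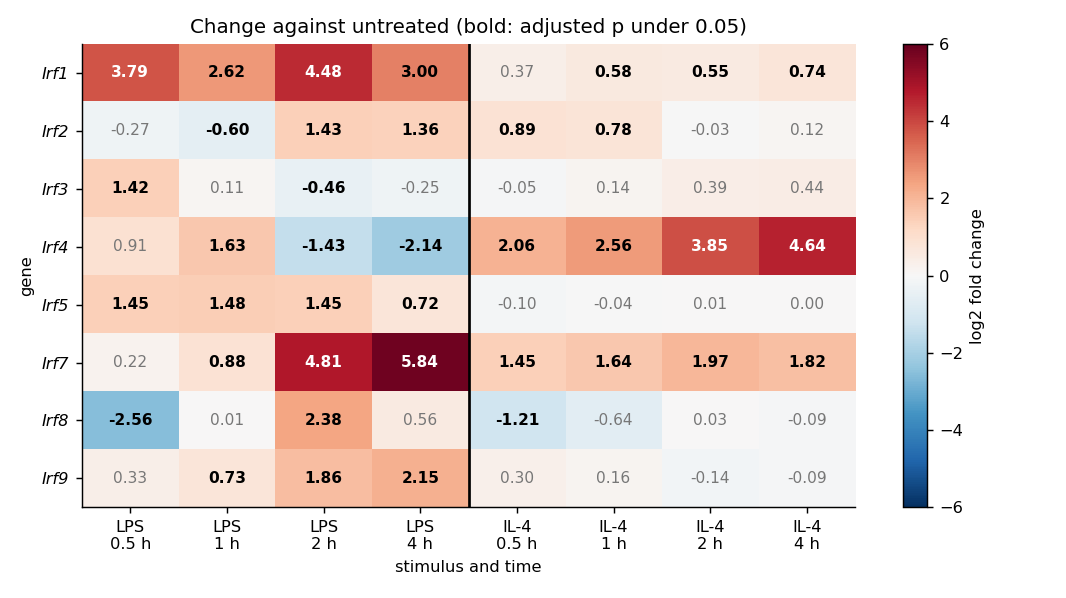
Log2 fold change of each IRF gene (rows) against untreated after LPS and IL-4 at each time (columns), with colour from -6 (blue) to 6 (red) and bold numbers where the limma adjusted p was under 0.05. LPS columns run from -2.56 (Irf8 at 0.5 h) to 5.84 (Irf7 at 4 h), and the largest IL-4 value is 4.64 (Irf4 at 4 h).

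The stimuli were then compared at matched times in a fit of all 27 samples. At 0.5 h, LPS was above IL-4 for 3 IRF genes (Irf1, Irf3 and Irf5; 18% of all genes) and below it for 4 (Irf2, Irf4, Irf7 and Irf8; 35.8%). At 1 h it was above for Irf1, Irf5 and Irf9 (24%) and below for Irf2, Irf4 and Irf7 (40.5%). At 2 h it was above for 6, all but Irf3 and Irf4 (26.4%), and below for those 2 (42.3%). At 4 h it was above for Irf1, Irf2, Irf5, Irf7 and Irf9 (26.1%) and below for Irf3 and Irf4 (41.9%). Irf2 and Irf7 were thus lower with LPS at 0.5 and 1 h and higher at 2 and 4 h. Irf4 gave the largest differences at 2 and 4 h, with log2 ratios of LPS to IL-4 of -1.15 and -0.94 at first, -5.28 at 2 h and -6.78 at 4 h (SE 0.36, limma adjusted p = 4.14e-14), of which the 1 h call was lost without replicate 2 (0.101). With LPS samples of 1 to 7 counts behind them, these later ratios depend on the setting: over the alternatives, all called, the 2 h ratio lay between -5.85 and -4.20 and the 4 h ratio between -7.42 and -5.20. Rescaled by the median of ratios, Irf4 (-0.66) and Irf7 (-0.48) at 1 h were not called and Irf8 was called higher at 1 h (0.94) and 4 h (0.93). With equal totals, Irf9 at 0.5 h (-0.35) and Irf3 at 1 h (-0.50) were called lower, and Irf9 at 1 h (0.10) and Irf5 at 4 h (0.09) were not called.

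**Figure D3:**
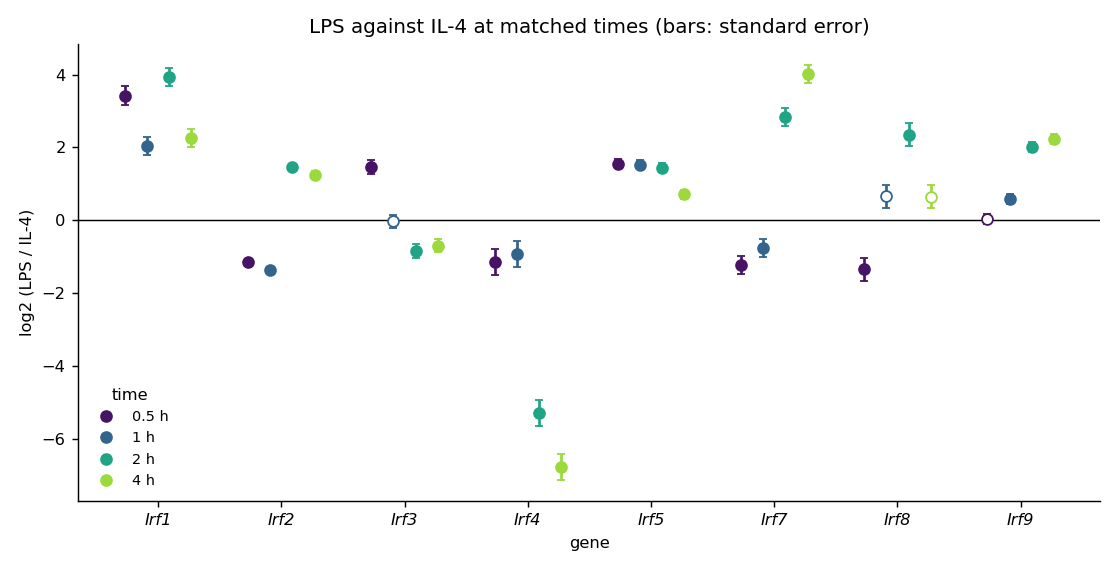
Log2 ratio of LPS to IL-4 for each IRF gene at each of the 4 times (colours), with standard errors from the limma fit as bars and filled points where the adjusted p was under 0.05. Irf2 and Irf7 cross 0 between 1 and 2 h, Irf1 and Irf5 stay above it, and Irf4 falls to -5.28 and -6.78.

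Part of these values rests on how the table was scaled. As deposited, the median of all genes tested changed by -0.24, -0.30, -0.29 and -0.26 on the log2 scale over the LPS times in order, while IL-4 left it near 0, so each LPS change is more positive by that much when read against the median gene, which makes Irf2 at 1 h -0.29, Irf3 at 2 h -0.18 and Irf7 at 4 h 6.10. Rescaling by the median of ratios brought the LPS medians to -0.01, -0.05, -0.06 and -0.04, and equal totals to -0.73, -0.86, -0.91 and -0.84. At 2 h the all-gene split was 3740 higher and 5417 lower as deposited, 4444 and 4571 with the median of ratios, and 2369 and 7976 with equal totals. The LPS calls of Irf1, of Irf8 at 0.5 and 2 h and of Irf2 and Irf4 from 1 h on held under both. Those of Irf7 and Irf9 at 2 and 4 h, of Irf3 at 0.5 h and of Irf5 at 0.5, 1 and 2 h did too. With equal totals the rises of Irf9 (0.15) and Irf7 (0.32) at 1 h and of Irf5 at 4 h (0.11) were not called, and Irf2 at 0.5 h (-0.78), Irf3 at 1 h (-0.46) and Irf3 at 4 h (-0.85) were called lower. With the median of ratios Irf9 (0.57) and Irf4 (1.14) at 0.5 h were called higher, Irf8 at 4 h (0.80) was called higher, and Irf3 at 2 h (-0.23) was no longer called.

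**Figure D4:**
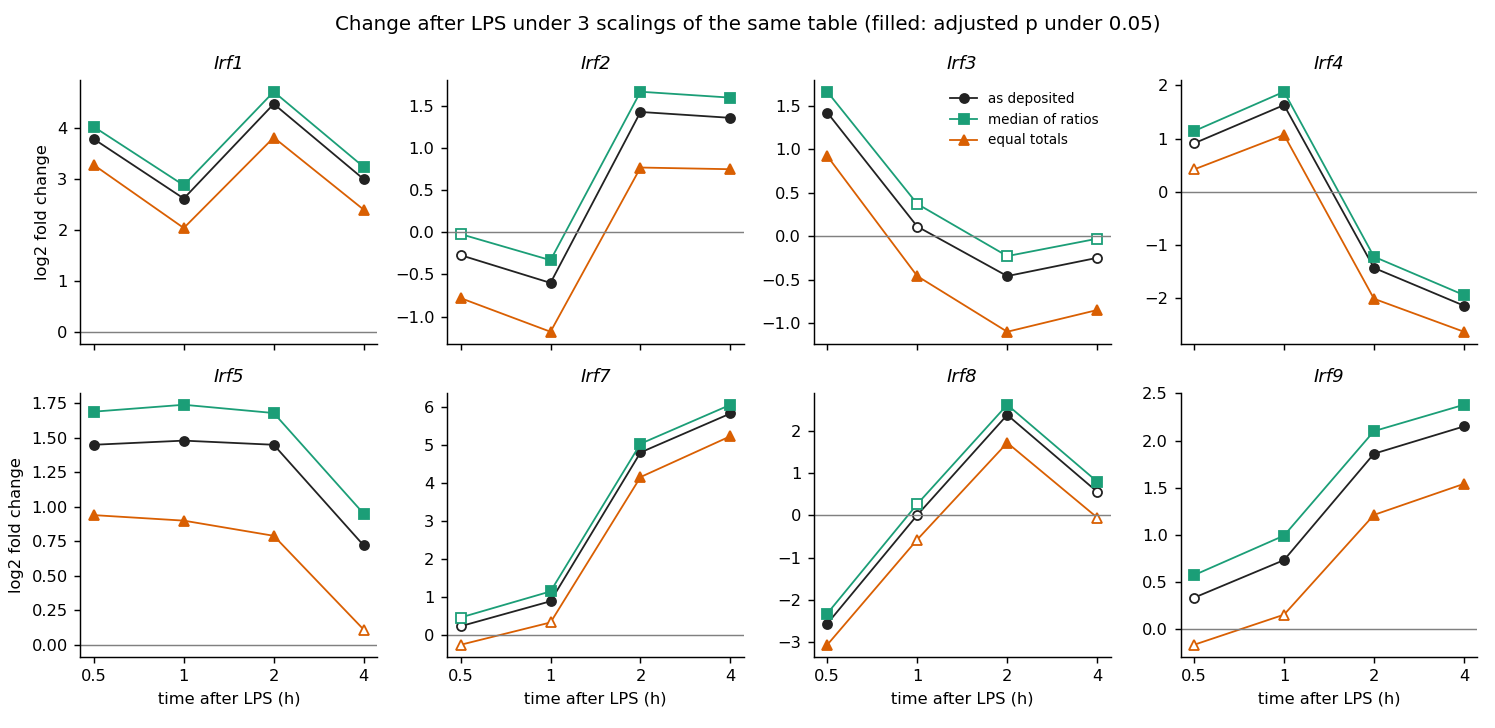
Log2 fold change of each IRF gene against untreated after LPS at each time, with the values as deposited (circles), rescaled by the median of ratios (squares) or to equal totals (triangles), filled where the limma adjusted p was under 0.05. The shapes of the courses stay alike while the level shifts, which moves Irf3 at 1 h from 0.11 to -0.46 and Irf5 at 4 h from 0.72 to 0.11 with equal totals.

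Levels between genes were compared only per length, in untreated cells. Per kilobase of gene span, mean normalised read counts were 18.3 for Irf5, 15.8 for Irf2, 14.0 for Irf8, 11 for Irf9, 8.46 for Irf3, 8.05 for Irf1, 6.79 for Irf7 and 0.883 for Irf4. Per kilobase of exons, Irf2 came first with 685, followed by Irf5 with 106 and Irf8 with 83.0, and Irf4 was again last with 3.29. Whether introns were counted is not stated in the sources used here, so neither scale is settled.

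Across the 9 group means, the genes most like each IRF gene were found among 3277 tested protein-coding genes with no overlapping neighbour and a mean of at least 50, by Pearson's r of log2(value + 1). These r are over 9 groups that share the untreated samples and the libraries, and are a description. They compare the shape of a course and not its size. Matr3, named below, ranged over 1.91 on the log2 scale, while the group means of Irf4 ran from 3.33 to 399.3. Mx1 ranged over 9.35, while the group means of Irf9 ran from 60 to 297. Irf9 was most like Mx1 (r = 0.993) and Gbp6 (0.990), and Irf7 like Gbp9 (0.990), all interferon-inducible GTPases, with Nub1 (0.982) second for Irf7. Irf5 was most like Vps37c and Ube2f (both 0.991), Irf1 like Arf4 (0.986) and Cacfd1 (0.970), and Irf8 like Trim3 (0.983) and Setd1b (0.967). Irf4 was most like Matr3 (0.970) and Urb1 (0.965), Irf3 like Cstf3 (0.970) and Shc1 (0.954), and Irf2 like Tmem106a (0.960) and Ms4a6d (0.923), the lowest pair.

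Genes around the IRFs were read from lists of their activators, partners and targets. At 2 h of LPS, to which most of the counts below refer, 26.9% of all genes tested were higher and 39% lower, and at 4 h of IL-4, the other time used, 13.4% and 12.5%. Among 18 receptors, sensors, adaptors and kinases that lead to IRF activation, 10 were higher and 4 lower at 2 h of LPS (median log2 fold change 0.99, against -0.29 over all genes). Ikbke, the gene of IKKε, rose by 3.53 and Tbk1 by 1.47 on the log2 scale at that time, while Tlr4, the LPS receptor, fell by 1.60 and Mavs, the mitochondrial adaptor of RNA sensing, fell by 2.1 (limma adjusted p under 0.05 for each). At 4 h of IL-4, 5 of the 18 were lower, against 12.5% of all genes (2 without replicate 2 and 2 without replicate 3), with a median of -0.02, Tbk1 among them at -0.41.

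Of 13 genes of the interferon axis, 10 were higher and 2 lower at 2 h of LPS (median 1.79), against 26.9% and 39% of all genes. Stat2, which encodes a subunit of ISGF3, went from a mean of 221.3 normalised read counts in untreated cells to 2754, a log2 fold change of 3.63. Ifnb1, the interferon-β gene, was at 0 in untreated and IL-4 samples and reached means of 5.00 at 0.5 h of LPS, 12.7 by 1 h and 1.00 by 2 h. Socs1, a feedback inhibitor of JAK kinases, rose with both stimuli, from a mean of 1.00 to 156.3 at 2 h of LPS and 138.7 at 4 h of IL-4. At that IL-4 time 3 of the 13 were higher and 2 lower (median -0.17), not far from the 13.4% and 12.5% of all genes, with 4 lower without replicate 1 and 1 without replicate 3.

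Of 10 DNA-binding partners and cofactors, 4 were higher and 2 lower at 2 h of LPS (median 0.32), against 26.9% and 39% of all genes, with 1 lower without any one replicate. These shares are not far from that background. Batf2, a partner of IRF1, rose by 5.09, and Irf2bp2, a corepressor partner of IRF2, fell by 4.61, from a mean of 111.0 to 3.67 normalised read counts. IL-4 at 4 h gave 2 higher and 1 lower (median 0.25), not far from the 13.4% and 12.5% of all genes. The counts were 4 and 0 without replicate 1 and 2 and 0 without replicate 3. Batf3 was at 4.17 and Irf2bpl fell from a mean of 8.67 to 1.67. The 4 h samples of Irf2bpl held 0 to 3, at the floor of 3 counts, so the size of its fall is imprecise. Of 4 regulators of IRF proteins, 3 were higher at 2 h of LPS (median 1.98), where 26.9% of all genes were, led by the ubiquitin ligase gene Trim21 at 4.09, and 1 was higher (Rbck1, 0.70) and 1 lower (Trim30a, -0.72) at 4 h of IL-4, the latter not without replicate 3. Over all genes the shares at that IL-4 time were 13.4% and 12.5%.

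Of 17 tested targets of IRF3 and ISGF3, 9 were higher at 0.5 h of LPS, 14 at 1 h and all 17 at the later times, where 19.6%, 24.8%, 26.9% and 25.9% of all genes were higher at the 4 times in order. At 0.5 h, 1 was lower (34.4% of all genes), the helicase gene Ddx60, named after its values were seen, which went from a mean of 353 to 268. The median log2 fold change of the 17 was 0.80, 2.44, 6.28 and 6.88. Ccl5, Cxcl10, Ifit1, Isg15 and Oasl1 passed the filter only with their LPS samples, so the filter partly set the counts higher after LPS. The chemokine gene Ccl5 was early, with a mean of 1.00 in untreated cells and 353.0 at 0.5 h, while Mx1 and Ifit2, antiviral effectors, were at 0.30 and 0.80 at 0.5 h, both uncalled, and at 7.60 and 6.28 at 2 h. At 4 h of IL-4, 10 of the 17 were lower, against 12.5% of all genes (median -1.11, or -1.09 with the genes at the floor set to their bound), Ifit2 (-2.01) and Rsad2 (-1.96) among them, with 5 lower without replicate 3.

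Of the 11 targets of IRF1, 5 were higher and 4 lower at 0.5 h of LPS, against 19.6% and 34.4% of all genes. The share lower is not far from that background. The 4 lower ones, named after their values were seen, were Nos2, Psmb8, Psmb9 and Tap1. Tap1, a subunit of the peptide transporter for antigen presentation, went from a mean of 46.3 to 23.7. Psmb9, an immunoproteasome subunit, went from 18.3 to 0.333. Psmb8 held 6 to 9 in untreated samples and 1 to 2 at 0.5 h, and Cxcl9 held 0 and 1 to 4, both near the floor. Nos2 was under the floor of 3 counts in both groups, with means of 1.00 and 0. Its call thus shows no fall from a measured level. The list median at 0.5 h was 0.20, or 0.05 with the genes at the floor set to their bound. At 1 h 8 were higher, and at both later times 10, against 24.8%, 26.9% and 25.9% of all genes higher, with a median of 5.41 at 2 h that did not move with the genes at the floor set to their bound. Nos2, Il12b, Psmb8, Cxcl9 and Il27 passed the filter only with their LPS samples, so the filter partly set the counts higher after LPS. Nos2, the inducible nitric oxide synthase, went from a mean of 1.00 to 591.7 at 2 h. Il12b peaked at 1 h with a mean of 549.7 normalised read counts and was at 0 in untreated cells. IL-4 at 4 h gave 2 lower, Il15 and Gbp3, both at -0.90, not far from the 12.5% of all genes, with 3 without replicate 1 and 1 without replicate 2 or replicate 3.

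Of 6 tested targets of IL-4 and IRF4, 5 were higher at 0.5 h of IL-4 and all 6 from 1 h on, against 8.15%, 11.1%, 14.3% and 13.4% of all genes at the 4 times in order, with a median of 2.93 at 4 h (2.38 with the genes at the floor set to their bound). Without replicate 3, 3 were higher at 0.5 h, and without replicate 2, 4 were higher at 1 h and 4 at 2 h. Arg1, Retnla, Ccl24 and Pdcd1lg2 passed the filter only with their IL-4 samples, so the filter partly set the counts higher after IL-4. Pdcd1lg2, the gene of PD-L2, went from a mean of 1.00 normalised read count in untreated cells to 582.3 at 4 h, and Arg1, arginase, from 9.33 to 61.0. At 2 h of LPS 3 of the 6 were higher and 1, the mannose receptor gene Mrc1, was lower (-2.37), against 26.9% and 39% of all genes. The list median there was 0.843, or 0.145 with the genes at the floor set to their bound. The 3 higher ones were Pdcd1lg2, Ccl24 and Kdm6b, the last 2 named after their values were seen. Pdcd1lg2 and Ccl24 held 0 to 2 in untreated samples, under the floor of 3 counts, and 3 to 11 and 3 to 4 at 2 h of LPS. Kdm6b went from 20 to 25 up to 70 to 117.

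**Figure D5:**
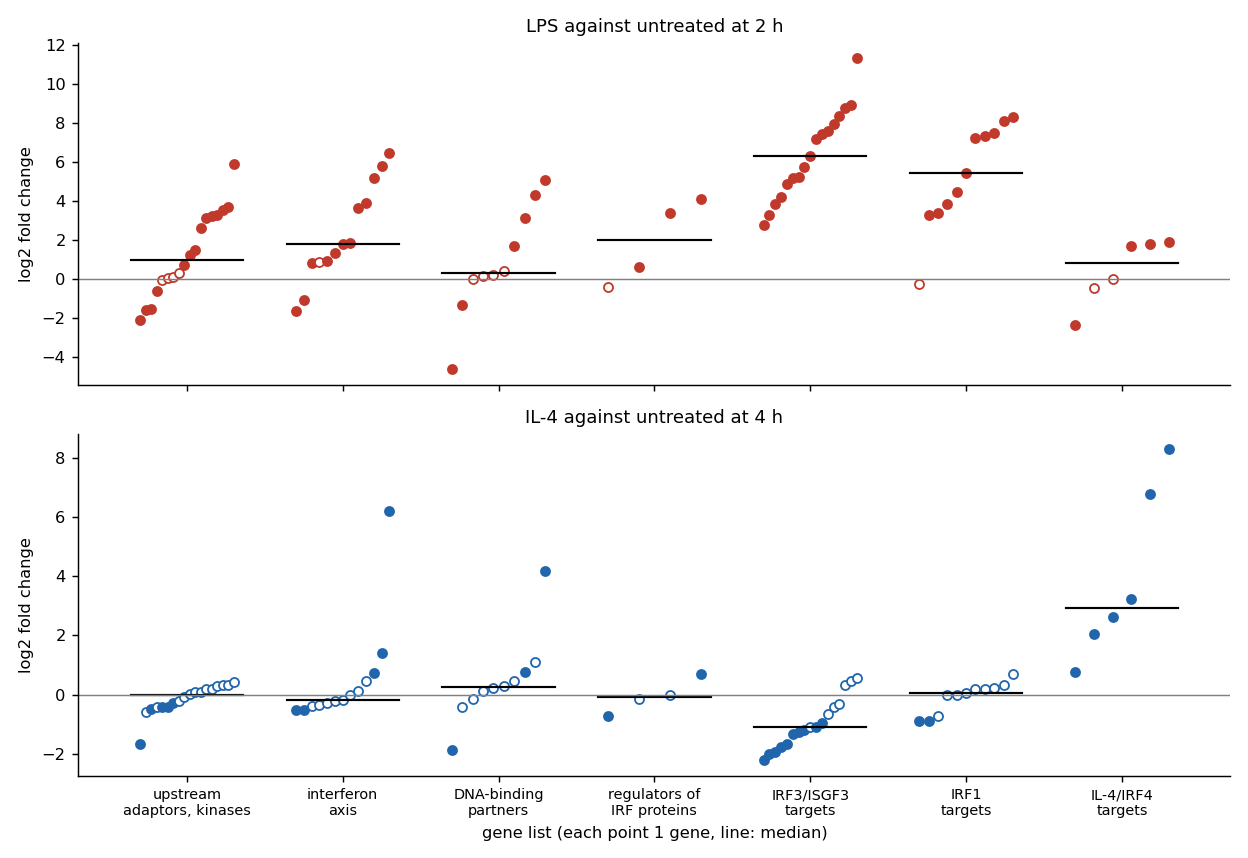
Log2 fold change of each tested gene of the 7 lists against untreated at 2 h of LPS (upper panel, red) and 4 h of IL-4 (lower panel, blue), filled where the limma adjusted p was under 0.05, with black lines for list medians. All 17 targets of IRF3 and ISGF3 lie above 0 in the LPS panel, and the 6 targets of IL-4 and IRF4 do so in the IL-4 panel. Some genes of these lists passed the filter only with their LPS or only with their IL-4 samples.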

How the data were processed

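Per the labels and the methods of the study, chromatin-associated RNA libraries were made by a Smart-seq2 procedure with random primers and sequenced single-end. The authors aligned reads to mm10 with TopHat2 2.1.1, removed multi-mapping and blacklisted reads (bedtools 2.29.2), counted reads per RefSeq gene with Bioconductor packages, scaled the samples on invariant genes and rounded, so the deposited values are normalised read counts and were treated as a score, not as raw counts. Raw depth is unknown.

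A gene was tested where 3 or more of the 27 samples reached 10. Values were taken as log2(value + 1), pseudocount 1, and fitted with limma 3.58.1 under R 4.3.3 (trend, Benjamini-Hochberg adjustment over 13901 genes, threshold 0.05), each course in its own fit of 15 samples, and LPS against IL-4 in a fit of all 27. Fold changes on this scale understate changes of low genes. The study used an impulse model, which was not run. Groups and replicate numbers came from the labels, and every value column was used.

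The members, gene lists and tests were chosen with earlier results of these data known. Named genes were all 8 members, for each the 2 genes of highest Pearson's r over group means, and up to 4 examples per list. For genes with every sample of a group at or under 3, medians were also taken with the change bounded at 3. Ifit3, Chil3 and Ccl17 of the lists did not pass the filter. Alternatives were other pseudocounts (0.5 and 8), filters and scalings, a replicate block, no trend, 1 fit of all samples, leaving out each replicate, and averaging replicates 2 and 3.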

Additional observations from a re-analysis of the deposited data

How the results depend on the processing

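Of 1671 values of single IRF genes under the alternatives, 1537 kept their direction and side of the threshold, 84 lost a call, 26 gained one and 24 turned sign, none of the last called as deposited. Steps between times that were not called as deposited were left out of these values, so calls that such steps gained are not among the 26. All 8 LPS courses and the IL-4 courses of Irf2, Irf4 and Irf7 were called under every alternative run. Causes were not tested. IRF genes called at 0.5 h of LPS numbered 4, and 7 with all 27 samples in 1 fit (4 to 6 without a replicate). The LPS step from 0.5 to 1 h gave 6, and 3 with no trend (3 to 4 without a replicate), and the last LPS step 4 (1 to 5). The IL-4 course gave 6, and 3 with replicates 2 and 3 averaged (3 to 5), and its steps 0, 2 and 0 (0 to 2, 1 to 3 and 0 to 1), of which the middle gave 1 when averaged.

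With the replicate block, the first and last IL-4 steps gave 1 each, no IRF call was lost, and Irf8 at 4 h of LPS (adjusted p = 0.00316), Irf8 at 1 h of IL-4 (0.00189), Irf1 at 0.5 h of IL-4 (0.0348), Irf2 at 0.5 h of LPS (0.0359) and Irf8 between stimuli at 1 h (2.91e-04) and 4 h (2.85e-04) were called by limma. The numbers share no stated batch: same-numbered samples correlated at 0.369 to 0.68, 0.0897 to 0.292 and 0.223 to 0.439 for replicates 1, 2 and 3, and 25 of 36 checks were best with the own number, a hint from the data only. At 4 h of IL-4 the block gave 1 activator gene higher (0 to 2 without a replicate), 5 interferon axis genes lower (1 to 4) and 5 partners higher (2 to 4).

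At 4 h of IL-4, activators lower numbered 3 with no filter or no trend and 2 when averaged (2 to 5 without a replicate), partners higher 1 with a mean of at least 50, partners lower 0 with no filter or that mean (0 to 1), regulators lower 1 (0 to 1), IRF3 and ISGF3 targets lower 10 (5 to 10), and IRF1 targets lower 1 when averaged (1 to 3). At 2 h of LPS, partners lower numbered 1 with no filter, a mean of at least 50 or averaging, and 4 with equal totals (1 to 1 without a replicate), while equal totals gave 1 regulator and 2 IL-4 and IRF4 targets lower. Of the latter, 3 passed a mean of at least 50 and 3 were higher at every IL-4 time (without a replicate, 3 to 5, 4 to 6, 4 to 6 and 5 to 6 over the times in order).

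Signs turned with equal totals for LPS in Irf7 (-0.27) and Irf9 (-0.17) at 0.5 h, Irf3 (-0.46) and Irf8 (-0.57) at 1 h and Irf8 (-0.05) at 4 h, for Irf5 at 2 h of IL-4 (-0.02) and for Irf9 against IL-4 at 0.5 h (-0.35). With the median of ratios they turned for Irf5 at 2 h (-0.02) and 4 h (-0.05) of IL-4 and Irf3 against IL-4 at 1 h (0.25), and when averaged for Irf5 at 1 h of IL-4 (0.003) and Irf9 against IL-4 at 0.5 h (-0.01). Leaving out a replicate gave -0.02 to 0.26 for Irf3 and -0.25 to 0.16 for Irf8 at 1 h of LPS, -0.22 to 0.22 and -0.05 to 0.26 for Irf3 at 0.5 and 1 h of IL-4, -0.14 to 0.05, -0.17 to 0.10 and -0.05 to 0.06 for Irf5 at 1, 2 and 4 h of IL-4, -0.05 to 0.10 for Irf8 at 2 h of IL-4, and, for LPS against IL-4, -0.09 to 0.12 for Irf9 at 0.5 h and -0.16 to 0.05 for Irf3 at 1 h. Raw depth is unknown, so precision at low values, such as Irf4 after LPS, cannot be given.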
